A study of Mus musculus with 8 samples.

Results

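Cytosolic ribosomal protein genes were taken as the gene symbols of the Rpl and Rps series, with Rplp0 to Rplp2 and Rpsa, after leaving out named pseudogenes, the Rps6k kinases, Rps19bp and Rpl7l symbols. They were further chosen by their measured level, a mean of at least 20 TPM over the 8 libraries, where TPM is a length-scaled share of a library's transcripts. Of 33641 symbols in the files 90 matched the pattern and 85 reached that level, 49 of the large and 36 of the small subunit. All 85 also passed the filter used for testing, which kept the 16064 genes that reached 1 TPM in 2 or more libraries. The label held for 81 of the members, which the GENCODE annotation lists as protein coding. The other 4, Rps3a2, Rps3a3, Rps12l1 and Rpl37rt, are listed there as processed pseudogenes, that is, copies of a messenger RNA written back into the genome.

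The RNA came from haematopoietic stem cells sorted from bone marrow of C57BL/6 mice. There were 4 genotypes with 2 libraries each. Beside the wild type, the library pairs were labelled Scribble-/- (here Scribble null), Taz-/-;Yap1-/- (here Yap1 Taz null) and, for the loss of all 3 genes, Scribble-/-;Taz-/-;Yap1-/- (here triple null). All groups, the wild type included, carried Cre under the Mx1 promoter, which interferon turns on in blood cells and in other tissues, and all received 6 intraperitoneal injections of 10 mg/kg polyI:C, a mimic of viral RNA that raises interferon. Cells were taken 1 week after induction, so there was no group without interferon induction. Scribble is a scaffold protein of cell polarity, and Yap1 and TAZ are co-activators of transcription held back by the Hippo kinases. The series title ties Yap1 and Scribble to stem cell division and fate, and the labels name the wild type as the reference. The labels speak of experimental replicates without naming separate mice, so p-values measure only the spread between these samples, and that spread could be technical.

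Each cytosolic ribosome has a small subunit, which reads the messenger RNA, and a large subunit, which joins the amino acids, and each ribosomal protein is present in a fixed number per ribosome, as a rule a single copy. The genes are scattered over the chromosomes, are among the most strongly transcribed in any cell, and their messenger RNAs mostly begin with a run of pyrimidines that places their translation under the growth regulator mTORC1. Haematopoietic stem cells keep protein synthesis low, and heterozygous loss of several of these genes causes Diamond-Blackfan anaemia in people. Nearly all of them have many processed pseudogenes, some differing from the parent gene by a handful of bases, and reads from such copies are hard to assign.

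The largest differences between genotypes lay in families of near-identical copies, so stretches of their coding sequence are shown first, 5′ to 3′ on the coding strand and from the GENCODE M21 transcripts of the mouse build GRCm38, which is mm10. The families were picked after the values were seen. Capitals mark the positions at which the printed family members differ. Rps3a1 (chr3:86137940-86142702), Rps3a2 (chr14:88123017-88123808) and Rps3a3 (chr13:108670603-108671397) are shown over coding positions 609 to 668, counted from the first base of the start codon of Rps3a1.
Rps3a1: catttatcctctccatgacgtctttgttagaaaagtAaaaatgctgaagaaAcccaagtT
Rps3a2: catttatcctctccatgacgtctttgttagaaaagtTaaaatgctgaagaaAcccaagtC
Rps3a3: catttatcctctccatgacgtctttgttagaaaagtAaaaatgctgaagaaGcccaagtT
Over the 792 coding bases of Rps3a1, Rps3a2 differed at 4 and Rps3a3 at 8 of 791 aligned. Rpl29 (chr9:106429454-106431568) and its copies Gm8210 (chr1:43189156-43189638) and Gm13841 (chr5:115801677-115802159) are shown over coding positions 13 to 72.
Rpl29: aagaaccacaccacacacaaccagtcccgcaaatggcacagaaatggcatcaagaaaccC
Gm8210: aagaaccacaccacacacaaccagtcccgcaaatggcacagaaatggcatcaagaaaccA
Gm13841: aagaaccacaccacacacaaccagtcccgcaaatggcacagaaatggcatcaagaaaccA
Each copy differed from Rpl29 at 3 of 480 coding bases. Rpl30 (chr15:34440505-34443640) and Gm12191 (chr11:49678710-49679057) differed at 1 of 345 coding bases, which lies at the end of the stretch from position 37 to 96.
Rpl30: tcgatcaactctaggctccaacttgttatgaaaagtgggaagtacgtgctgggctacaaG
Gm12191: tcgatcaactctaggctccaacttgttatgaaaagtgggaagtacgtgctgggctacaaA
Rps18 (chr17:33951999-33956001), Gm10260 (chr13:97760072-97760632) and Gm11361 (chr13:28257528-28258134) are shown over coding positions 127 to 186.
Rps18: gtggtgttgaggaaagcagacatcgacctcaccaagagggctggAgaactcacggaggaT
Gm10260: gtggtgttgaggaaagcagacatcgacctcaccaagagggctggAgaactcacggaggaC
Gm11361: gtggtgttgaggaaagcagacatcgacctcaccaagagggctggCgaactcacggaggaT
Gm10260 differed from Rps18 at 4 of 456 coding bases and Gm11361 at 3. Gm10260 and Gm11361 are annotated as protein coding, and the copies of Rps3a1, Rpl29 and Rpl30 shown above as processed pseudogenes.

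A sequence feature that the choice of genes did not use was more common among the members than among all genes, although most of the members looked at lacked it. In the RefSeq promoter table for GRCm38.p6, which held 62 of the 85 members, a run of at least 8 bases that were each C or T lay within 15 bases of the annotated start on the coding strand in 27 members (43.5%). The same run was found in 13.9% of all 27025 genes in that table and in 9 of 69 mitochondrial ribosomal protein genes (13.0%). The windows of 30 bases below show the 3 longest runs and, for contrast, 3 members on which the results turn or which lead in abundance, with the longest run in capitals.
Rpl7a (chr2:26910792-26910821, plus strand): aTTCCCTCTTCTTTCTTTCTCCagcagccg
Rpl27a (chr7:109519180-109519209, plus strand): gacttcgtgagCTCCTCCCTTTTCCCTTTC
Rpl34 (chr3:130730323-130730352, minus strand): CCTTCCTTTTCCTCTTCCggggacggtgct
Rps18 (chr17:33955651-33955680, minus strand): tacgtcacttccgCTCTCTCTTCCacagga
Rps27 (chr3:90213634-90213663, minus strand): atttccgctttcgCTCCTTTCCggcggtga
Rps3a1 (chr3:86142654-86142683, minus strand): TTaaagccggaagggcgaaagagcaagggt
Rpl35 had a run of 18 as well. The run reached 21 bases at Rpl7a, 11 at Rps18 and 9 at Rps27, while the longest at the annotated start of Rps3a1 was 2, and a window without the run says only that those letters are not in it.

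The genes named in the genotypes gave no clear check of the labels. Scrib was at 8.19 and 9.29 TPM in wild type, 6.25 and 7.63 in Scribble null and 14.5 and 7.54 in triple null. Yap1 lay between 2.00 and 6.63 TPM in all 8 libraries and Wwtr1, which encodes TAZ, between 0.730 and 5.32, and in no genotype labelled null for them did both libraries lie below both wild-type libraries. Directions below are therefore between libraries as labelled. Between 14024 and 14970 genes reached 1 TPM per library, all 16 stem cell markers on the list did so in every library, and TPM keeps no record of sequencing depth.

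Levels of the members spanned 211-fold between the highest and the lowest mean, with a median mean of 1867 TPM. Because the mean level was used to choose them, these levels are a description. Rps29 led with a mean of 13789 TPM, and Rps27 (11524), Rpl13 (6547), Rpl41 (6491), Rplp2 (6378), Rpl23a (5738) and Rpl36 (4957) were also among the most abundant. The 8 most abundant members held 31.0% of the members' TPM, so the sum leans on a small number of genes. At the other end stood Rps27rt (65.3 TPM), Rpl12 (96.4), Rps27l (139), Rpl5 (147) and Rpl27 (163). Of the TPM summed with near-identical copies, Rps27rt held 0.560%, Rpl12 4.72%, Rpl5 10.1% and Rpl27 9.73%. Their low levels are thus those of the single gene entry, whereas Rps27l held 99.7% of its sum. Below the limit of 20 TPM came Rps4l at 5.36, Rpl3l at 1.10, Rpl39l at 0.996, Rpl6l at 0.677 and Rpl10l at 0.0259 TPM, which are retained paralogues of ribosomal protein genes. Rps3a2 was the only member whose group means fell on both sides of the limit, with 2 groups below it and 2 above.

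The members together took a smaller share of the RNA in every null library than in either wild-type library. The share of TPM was 23.8 and 22.3% in wild type, 21.3 and 20.01% in Scribble null, 21.2 and 19.3% in Yap1 Taz null and 21.1 and 20.9% in triple null. The group means were 23.1% ± 1.08 (SD, n = 2) in wild type, 20.6% ± 0.882 in Scribble null, 20.2% ± 1.37 in Yap1 Taz null and 21.0% ± 0.152 in triple null. Near-identical copies outside the members raised the shares to 27.6 and 26.2% in wild type and to between 22.2 and 24.4% in the 6 null libraries, so every null library stayed below both wild-type libraries. In the authors' second table, whose unit is not named, the same genes took 17.3 and 20.5% of the total in wild type and 16.5 to 21.3% in the null libraries, which overlapped, and the Scribble null mean of 20.4% lay above the wild-type mean of 18.9%. A sum over the members gets no test here, and in bulk RNA fewer cells of a type and less RNA per cell cannot be told apart.

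**Figure D1:**
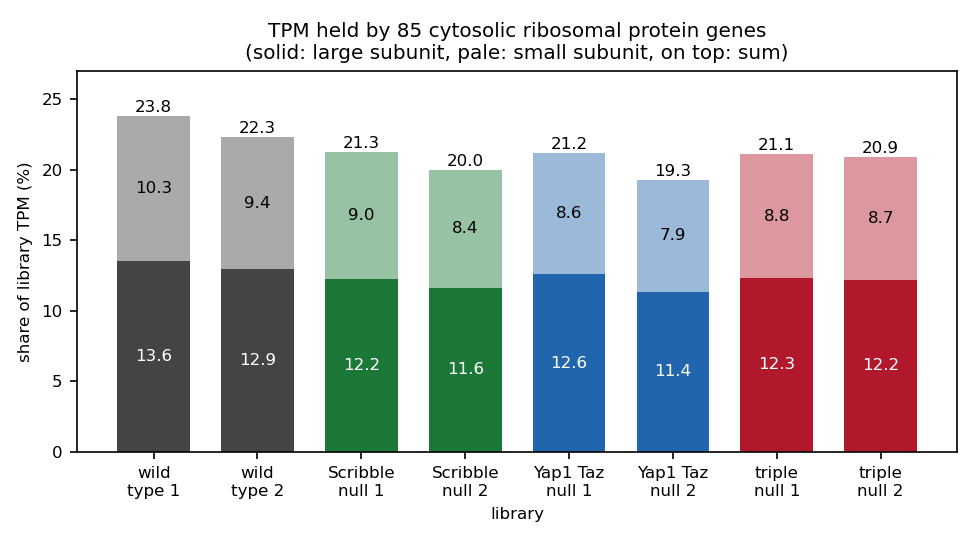
Share of each library's TPM held by the 85 genes (y axis, percent) for the 8 libraries (x axis), with the large subunit solid and the small subunit pale. The wild-type bars reach 23.8 and 22.3%, and the tallest null bar, Scribble null 1, reaches 21.3%.

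Other parts of the RNA also differed between libraries, and their part in the lower share was not tested. Mitochondrially encoded transcripts summed to 25644 and 26718 TPM in wild type and to between 27974 and 37763 TPM in the null libraries. The summed level of 7 megakaryocyte markers, all at 1 TPM or more in every library, was 1175 and 1323 TPM in wild type against 484 to 648 TPM in the null libraries. Pf4, a platelet chemokine, made up most of the markers' difference, at 816 and 958 TPM in wild type and 94.9 to 222 TPM elsewhere. The list as a whole was mixed. Above 0 on the log2 scale against wild type were 2, 6 and 3 of the 7 in Scribble null, Yap1 Taz null and triple null, and Itgb3, an integrin of platelets, rose by 1.48 in Scribble null (limma, adjusted p = 0.0216). The single gene Gm20594 was at 43341 and 49493 TPM in wild type, 61113 and 71618 TPM in Scribble null and 43565 to 52818 TPM in the other null libraries.

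The balance of the subunits differed less than the sum. Summed large subunit TPM over summed small subunit TPM was 1.32 and 1.38 in wild type, 1.35 and 1.38 in Scribble null, 1.46 and 1.44 in Yap1 Taz null and 1.40 and 1.40 in triple null. The Yap1 Taz null libraries were the highest pair, and the Scribble null libraries overlapped the wild type. This order held in the TPM files alone, since in the authors' second table the ratio was 1.06 in wild type, 1.01 in Scribble null, 1.05 in Yap1 Taz null and 1.04 in triple null. That table lacks the abundant large subunit genes Rpl41 and Rpl24, so the level of its ratios is not comparable.

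Gene by gene, most members were slightly lower in each null genotype than in wild type, and few single differences passed the test. The test was limma on log2(TPM + 1) over the 16064 genes, with Benjamini-Hochberg adjustment and calls at an adjusted p under 0.05. In Scribble null 1 of 85 members was called, against 1.3% of all genes tested, in Yap1 Taz null 4 against 0.99%, and in triple null 5 against 0.579%. By direction these were 1 higher in Scribble null, 3 higher and 1 lower in Yap1 Taz null, and 3 higher and 2 lower in triple null, where the shares of all genes called higher were 0.591, 0.473 and 0.224% and called lower 0.71, 0.517 and 0.355%. Rps3a2 met the level that chose it through the Yap1 Taz null and triple null libraries, so its call is fixed in part by the choice. Without the Rps3a genes the calls among 82 members were 1 higher in Scribble null and 1 higher in Yap1 Taz null. In triple null they were then 1 higher and 1 lower. The copy families printed above are those of the called members, so that link is no result. At least 1 near-identical copy was found for 82 of the 85 members. The median log2 difference from wild type over the members was -0.24 in Scribble null, -0.24 in Yap1 Taz null and -0.15 in triple null, whereas over all genes tested it was 0.14, 0.14 and 0.12. In the authors' second table the members' medians were closer to 0, at -0.13, -0.068 and -0.089, with 55, 55 and 54 of 82 members below 0. For the large subunit the medians were -0.24, -0.22 and -0.15 and for the small subunit -0.24, -0.26 and -0.15, so the subunits lay close together. Below 0 were 70, 70 and 65 of the 85 members (82.4, 82.4 and 76.5%), against 37.3, 36 and 37% of all genes. Without the Rps3a genes the counts were 69, 69 and 64 of 82. The 3 comparisons share the wild-type libraries.

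Separation of the libraries gave the same picture without the model. It is another reading of the same values against the same wild-type pair, and not separate evidence. Both libraries lay below both wild-type libraries for 57.6% of members in Scribble null, 72.9% in Yap1 Taz null and 62.4% in triple null, where the background over all genes was 15.7, 14.5 and 14.2%. For 39 members (45.9%) all 6 null libraries lay below both wild-type libraries, against 4.87% of all genes. Only 5 members (5.88%) had all 6 above, against 13.1% of all genes, and Rpl30 and Rps18 were among them. At an unadjusted p under 0.05, 33 members were lower and 5 higher in Scribble null, where 6.16% of all genes were lower and 12% higher. In Yap1 Taz null 26 were lower and 6 higher, against 4.2 and 10.1% of all genes. In triple null 13 were lower and 8 higher, against 3.45 and 7.5%.

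Rps6, the ribosomal target of S6 kinase, shows the pattern in the small subunit. It was at 3064 and 2786 TPM in wild type, 2278 and 2454 in Scribble null, 2611 and 2356 in Yap1 Taz null and 2603 and 2714 in triple null. Every null library was below both wild-type libraries, yet the adjusted p in Scribble null was 0.192 (limma) at a log2 difference of -0.31 ± 0.10 (SE), so the difference did not pass.

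The largest decreases outside the copy families printed above did not pass either. Rps27l, a p53-inducible paralogue of Rps27, was at 206 and 167 TPM in wild type and 107 to 155 TPM in every null library. Its log2 differences were -0.73, -0.66 and -0.42 with adjusted p of 0.0875, 0.145 and 0.408 for the 3 null genotypes in that order. Rpl39 (-0.65), Rps2 (-0.60) and Rpl18 (-0.58) were also among the 5 lowest in Scribble null, and Rps20 (-0.48) and Rpl27 (-0.44) were among those in Yap1 Taz null. In triple null Rpl27 and Rps7, both at -0.55, and Rps27rt, at -0.53, followed the called genes. Each of these has near-identical copies as well, though to unlike extents. Rps27l, Rpl18, Rps2 and Rpl39 held 99.7, 99.5, 96.0 and 94.5% of their sums with copies, and Rps20 held 61.8%. With copies summed, Rps7 was at 903 and 952 TPM in wild type and 962 and 1017 in triple null, so its direction turned. The Rps27rt family held a mean of 11690 TPM in wild type and 11696 in triple null. Rpl27 stayed lower, at 2195 and 1996 TPM in wild type and 1660 and 1556 in triple null.

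Library Scribble null 1 stood apart among the members, which bears on every Scribble null value. Over the 82 members other than the Rps3a genes, the SD of its log2 deviations from each gene's mean was 0.32, against 0.11 to 0.21 in the other 7 libraries. It was the lowest of the 8 libraries for 31 of these members and the highest for 13. Its replicate differed from it by a median of 0.23 on the log2 scale, where the pairs of the other genotypes differed by 0.083 to 0.14, and by over 0.5 for 15 members. Rps28 was at 1877 TPM in Scribble null 1 and 3771 to 4547 elsewhere, and Rplp1 was at 6540 TPM there and 2695 to 4588 elsewhere. Without Scribble null 1 the only call against wild type, Rpl30, was lost (limma, adjusted p = 0.147). Without Scribble null 2, which leaves the outlying library alone in its group with the spread taken from the others, 10 members were called. They included Rplp1 and Rpl30, both higher, and Rps28, Rpl39, Rps10, Rpl18, Rpl29, Rpl38 and Rps27a, all lower. The summed level of 10 neutrophil markers was also highest in this library, at 428 TPM against 119 to 268 elsewhere, and nearly all of it was Prtn3, with S100a8, Ly6g and Retnlg at 0 in all libraries.

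**Figure D2:**
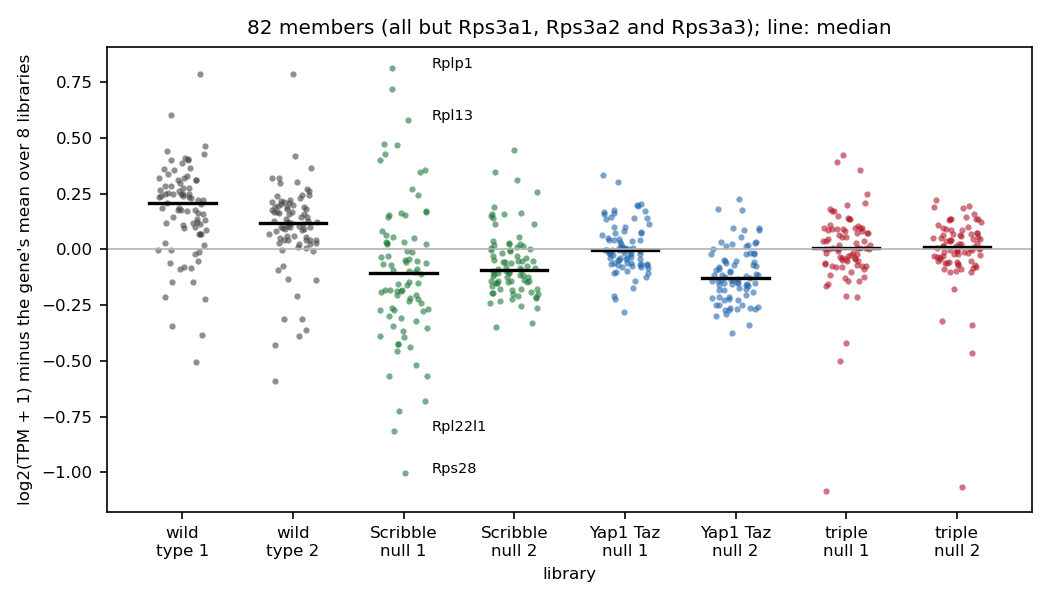
Deviation of log2(TPM + 1) from the gene's mean over 8 libraries (y axis) for 82 members in each library (x axis), with a line at the median. Scribble null 1 has the widest spread (SD 0.32), and the wild-type medians, at 0.21 and 0.12, are the 2 highest.

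Rps3a1, which encodes a small subunit protein at the messenger RNA exit site, changed places with its annotated pseudogenes. It was at 3449 and 3654 TPM in wild type, 3813 and 3160 in Scribble null, 266 and 231 in Yap1 Taz null and 247 and 247 in triple null. Rps3a2 ran the other way, at 7.44 and 12.4, 11.2 and 12.6, 1429 and 1235, and 1546 and 1574 TPM in the same order. Rps3a3 was at 32.9 to 40.4 TPM in the first pair of genotypes and at 682 to 822 TPM in the second. For each of the 3 genes the Yap1 Taz null and triple null libraries did not overlap the wild-type and Scribble null libraries.

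In limma Rps3a1 fell by 3.83 ± 0.13 (SE) on the log2 scale in Yap1 Taz null and by 3.84 in triple null (adjusted p = 4.47e-06 and 4.43e-06). Rps3a3 rose by 4.44 and 4.55 (adjusted p = 2.75e-06 and 2.25e-06), and Rps3a2 was 6.96 and 7.20 higher. Summed over Rps3a1 and its 6 copies, Rps3a2 and Rps3a3 included, the family held 3505 and 3714 TPM in wild type, 3886 and 3228 in Scribble null, 2519 and 2157 in Yap1 Taz null and 2620 and 2621 in triple null. For that sum the log2 difference was -0.63 in Yap1 Taz null (adjusted p = 0.0778) and -0.46 in triple null (adjusted p = 0.223). None of the 3 calls was left. The mean level that chose Rps3a2 was reached through the Yap1 Taz null and triple null libraries, so its difference is a description with no test, and its place among the called members is fixed in part by that choice.

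Rpl29, a heparin-binding protein of the large subunit, was highest in wild type and lowest in triple null. Its levels were 2155 and 2153 TPM in wild type, 1269 and 1698 in Scribble null, 1320 and 1263 in Yap1 Taz null and 588 and 594 in triple null. It fell by 1.86 ± 0.14 on the log2 scale in triple null against wild type (adjusted p = 0.000638), by 1.31 against Scribble null (0.0101) and by 1.13 against Yap1 Taz null (0.0341). In Yap1 Taz null against wild type the difference was -0.74 with an adjusted p of 0.0623.

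The copies Gm8210 and Gm13841 carried identical values in every library, 7.20 and 9.26 TPM in wild type, 13.4 and 13.4 in Scribble null, 415 and 447 in Yap1 Taz null and 884 and 896 in triple null. Added over Rpl29 and its 50 copies, the family held 2216 and 2215 TPM in wild type, 1373 and 1777 in Scribble null, 2202 and 2219 in Yap1 Taz null and 2413 and 2452 in triple null. On that sum triple null was 0.13 above wild type (adjusted p = 0.730), so the direction turned, and no comparison of Rpl29 was called. The call against Scribble null was lost without either triple null library (adjusted p = 0.118 without triple null 1 and 0.132 without triple null 2). The call against Yap1 Taz null was lost when any library of wild type, Yap1 Taz null or triple null was left out, with adjusted p of 0.0890 to 0.318.

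Rpl30, a large subunit protein, was higher in all 6 null libraries than in wild type when taken alone. It was at 2497 and 2422 TPM in wild type, 3934 and 3594 in Scribble null, 3592 and 3161 in Yap1 Taz null and 3749 and 3517 in triple null. It rose by 0.61 ± 0.11 in Scribble null (adjusted p = 0.0415), the only call in that comparison. Leaving out any library other than Scribble null 2 ended this call, with adjusted p between 0.0677 and 0.246. Its copy Gm12191 was at 3948 and 3911 TPM in wild type and 98.8 to 227 TPM in the null libraries, so in wild type the pseudogene was listed above its parent. With its 14 copies added, Rpl30 held 6583 and 6513 TPM in wild type and 3507 to 4261 TPM in the null libraries, and the direction turned. In limma the sum was called lower in Scribble null (-0.68, adjusted p = 0.0261), Yap1 Taz null (-0.82, 0.0106) and triple null (-0.74, 0.0248). TPM is scaled by length, and the longest annotated transcript of Rpl30 has 2412 bases, while Gm12191 matches its 345 coding bases. Reads placed on a shorter entry count for more TPM, so whether the lower sum reflects less RNA was not tested.

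Rps18, of the head of the small subunit, was also higher in all 6 null libraries than in wild type when taken alone. It was at 1379 and 1297 TPM in wild type, 1722 and 2118 in Scribble null, 2467 and 2220 in Yap1 Taz null and 2626 and 2281 in triple null. It rose by 0.81 ± 0.13 in Yap1 Taz null (adjusted p = 0.0392) and by 0.87 in triple null (0.0363). The copies Gm10260, at 429 and 487 TPM, and Gm11361, at 411 and 379 TPM, were abundant in wild type alone and lay between 2.18 and 10.0 TPM in the null libraries. Summed over 13 genes the family held 2301 and 2240 TPM in wild type and 1861 to 2719 TPM in the others, which overlapped, and the differences were 0.12 and 0.17 (adjusted p = 0.676 and 0.650). Each call on Rps18 alone was also lost when any library of wild type, Yap1 Taz null or triple null was left out, with adjusted p of 0.0856 to 0.225 in Yap1 Taz null and 0.0856 to 0.317 in triple null.

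**Figure D3:**
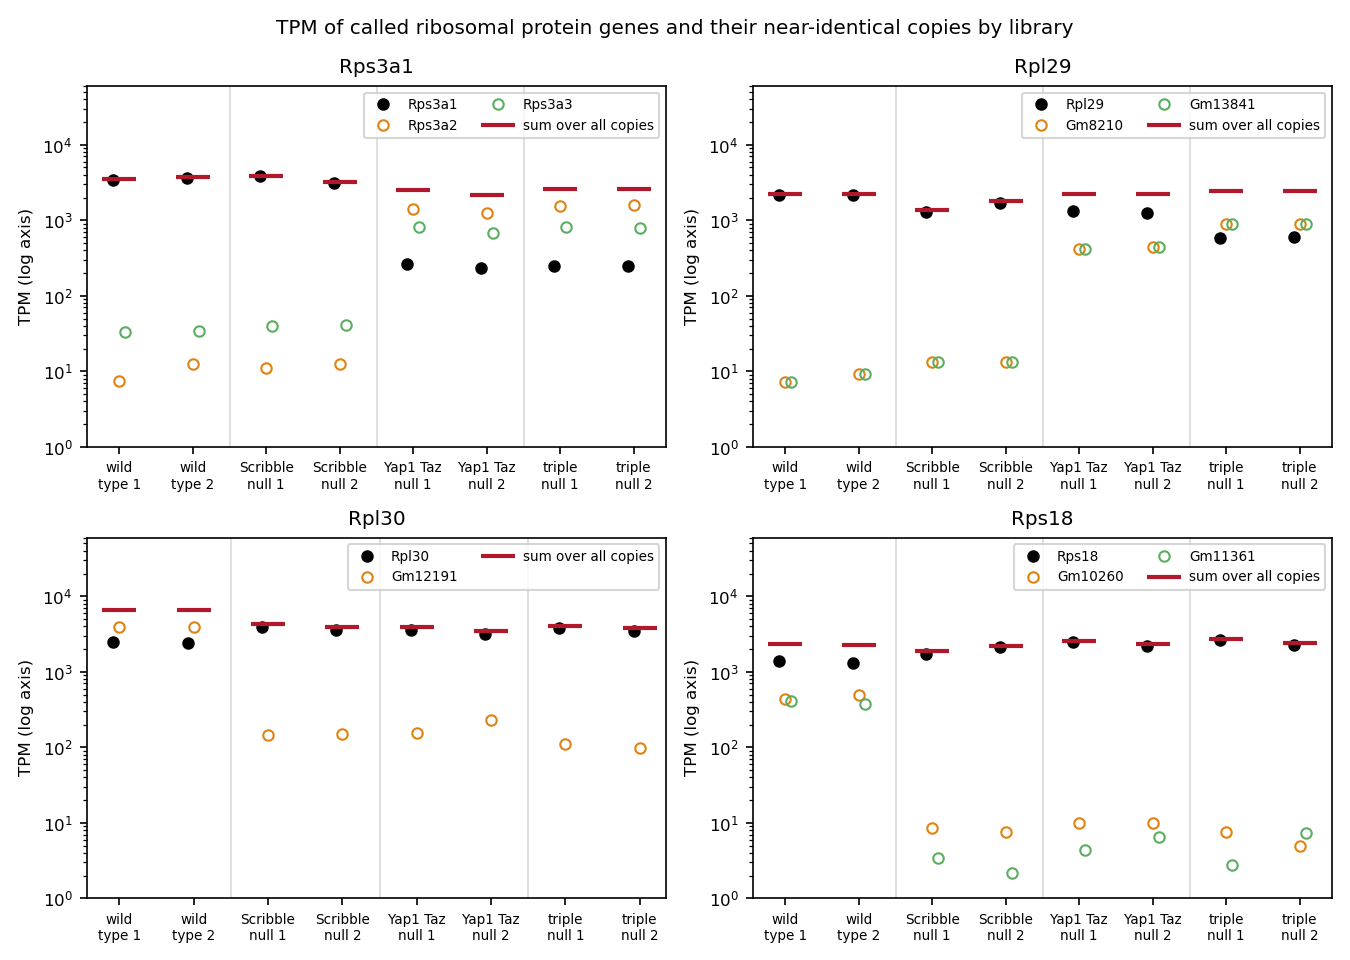
TPM on a log axis (y axis) by library (x axis) for the 4 copy families, with the parent gene as filled points, named copies as open points and the sum over the family as a red bar. Rps3a1 drops from 3160 TPM or more to 266 or less where Rps3a2 climbs to 1235 or more, and in the Rps3a1 family the sum moves far less than the parts. For Rpl30 the sum lies lower in every null library while Rpl30 alone lies higher.

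Rpl34, Rps13, Rpl3 and Rpl35a, whose null means also lay above the wild-type mean, had copies with the reverse pattern. Rpl34 was at 739 and 636 TPM in wild type and 736 to 1014 in the null libraries, while Rpl34-ps1 was at 980 and 716 TPM in wild type and 5.27 to 22.7 in the others. For Rps13 the levels were 1399 and 1303 TPM against 1559 to 1925, and for Rps13-ps1 they were 830 and 850 against 9.37 to 16.7 TPM. Rpl3 was at 1402 and 1348 TPM in wild type and Rpl3-ps1 at 435 and 424, against 1.97 to 5.75 TPM in the null libraries. Rpl35a, a gene of Diamond-Blackfan anaemia, had 5 copies of 206 and 199 TPM each in wild type and 2.22 to 3.95 TPM elsewhere, and these 5 carried identical values in each library. Rplp1 was unlike them, since it held 98.2% of its sum with copies. With copies added, its mean was 5373 TPM in Scribble null against 3415 TPM in wild type, so it stayed higher. These genes were chosen after their values were seen.

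Copies were common to the members in general. Counting as a copy any gene whose transcript matched at no less than 90% identity across no less than 50% of the shorter transcript, 82 of 85 members had at least 1 copy, with a median of 7 and a maximum of 70, and 860 copies lay outside the members. Summing members with copies left 81, 76 and 68 of 85 below 0 in Scribble null, Yap1 Taz null and triple null, with medians of -0.26, -0.24 and -0.15. Of the 15, 15 and 20 members above 0 on their own, 11, 8 and 9 were below 0 after summing. In the other direction 0, 2 and 6 members went from below 0 on their own to above it. Members that are copies of each other carry the same or nearly the same sum in these counts, namely Rps3a1 with Rps3a2 and Rps3a3, Rps27 with Rps27rt, and Rps12 with Rps12l1. With each family counted once, 78, 72 and 65 of 81 families were below 0. A member that turned from above 0 to below it was held by 10, 7 and 8 families. The calls became 1 in Scribble null (Rpl30), 2 in Yap1 Taz null (Rpl30 and Rpl34, the latter by -0.88 with an adjusted p of 0.0426) and 1 in triple null (Rpl30), all lower. Thus the calls of the genes taken alone gave way to others, while the small shift of most members stayed in place. A sum of TPM over entries of unlike length does not count reads, so the directions and calls of the sums carry that limit.

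**Figure D4:**
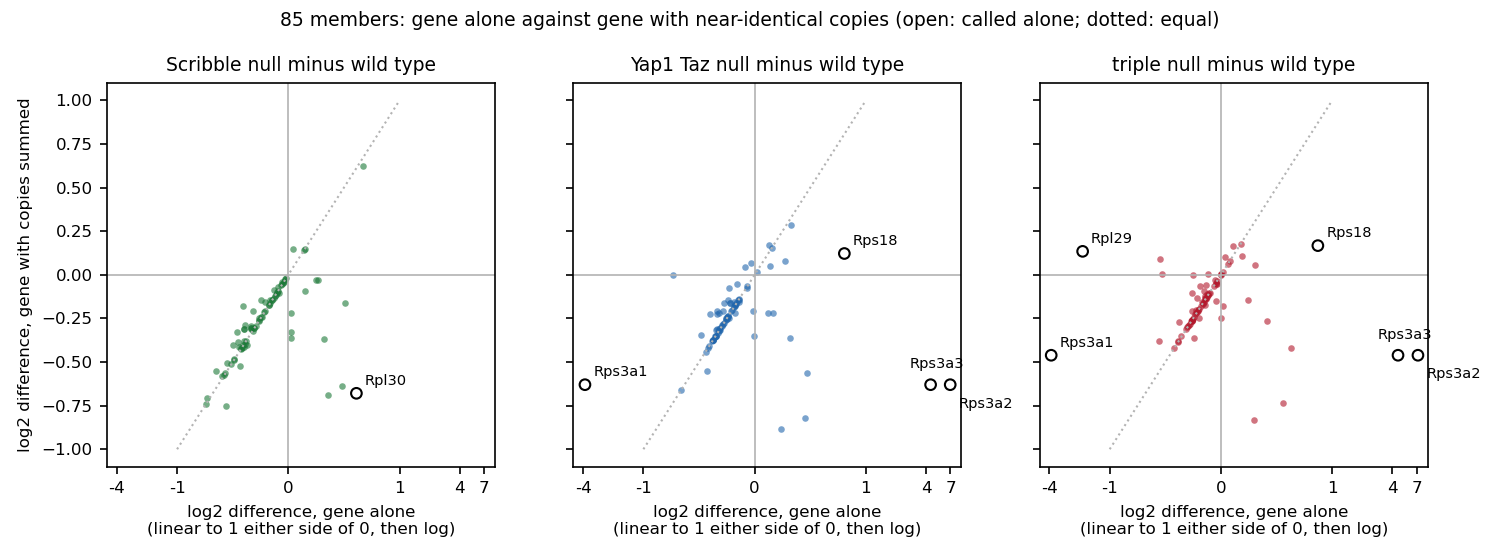
Log2 difference from wild type of each of the 85 members alone (x axis, linear to 1 either side of 0 and log beyond) against the same gene summed with its copies (y axis), in the 3 null genotypes, with called genes as open circles. Most points lie on the dotted line of equality below 0. Rpl30 and Rps18 lie far from it in each panel, and Rpl29 and the Rps3a genes in Yap1 Taz null and triple null.

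Among functional groups, the acidic stalk that recruits elongation factors gave differences of both signs. Rplp0, its scaffold, was at 747 and 685 TPM in wild type and 881 and 886 in triple null, which on the log2 scale is 0.30 higher (adjusted p = 0.429). Rplp1 was at 3569 and 2992 TPM in wild type, 6540 and 4155 in Scribble null, 4588 and 3673 in Yap1 Taz null and 2778 and 2695 in triple null. It thus lay above wild type in Scribble null (0.67, adjusted p = 0.162) and below it in triple null (-0.26, adjusted p = 0.691), and neither passed. Rplp2, the partner of Rplp1 in the stalk, was at 8013 and 6597 TPM in wild type and 5263 to 7046 in the others. None of the 3 stalk genes was called in any comparison with wild type, and 1 had an unadjusted p under 0.05 in each (Rplp1 in Scribble null, Rplp2 in Yap1 Taz null and Rplp0 in triple null).

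Rpl5 and Rpl11 hold the p53 inhibitor Mdm2, together with 5S RNA, when ribosome assembly fails. Taken alone, Rpl5 was lower in every null library than in both wild-type libraries, while Rpl11 overlapped the wild type. Rpl5 was at 166 and 165 TPM in wild type and 127 to 150 in the null libraries. Summed with its copies it was at 1585 and 1560 TPM against 1271 to 1586, which overlapped. Rpl11 alone was at 1786 and 1928 TPM in wild type and 1678 to 1910 in the null libraries. With Rpl23 and Rpl26, which also bind Mdm2, the median differences were -0.29, -0.20 and -0.15 in Scribble null, Yap1 Taz null and triple null. None of the 4 was called, and 2, Rpl23 and Rpl26, had an unadjusted p under 0.05, both lower in Scribble null. Of the p53 pathway list none of 13 tested genes was called, with medians of 0.10, 0.21 and 0.13, near those of all genes, and 3, 0 and 1 had an unadjusted p under 0.05. Mdm2 itself was at 69.2 and 65.1 TPM in wild type, 96.8 and 81.6 in Scribble null, 76.8 and 87.0 in Yap1 Taz null and 71.0 and 76.6 in triple null.

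The 20 members on a list of genes mutated in Diamond-Blackfan anaemia had medians of -0.26, -0.22 and -0.13, and none was called. Rps19, the gene most often mutated, was at 937 and 940 TPM in wild type, 734 and 835 in Scribble null, 995 and 807 in Yap1 Taz null and 971 and 863 in triple null. Its triple null and Yap1 Taz null values overlapped the wild type, and its Scribble null values lay below it. At an unadjusted p under 0.05, 7 of the 20 were lower and none higher in Scribble null, 3 lower and 1 higher in Yap1 Taz null, and 3 lower and 1 higher in triple null. Over all members 38.8, 30.6 and 15.3% were lower by that rule and over all genes 6.16, 4.2 and 3.45%. The count is thus near that of the members at large in Scribble null and triple null, and below it in Yap1 Taz null. Rps20 was at 2581 and 2171 TPM in wild type and 1560 to 1876 in the 6 null libraries, with log2 differences of -0.50, -0.48 and -0.38 and adjusted p of 0.108, 0.162 and 0.339. Rpl27 was at 219 and 194 TPM against 129 to 157, again with every null library below. Summed with its copies it was at 2195 and 1996 TPM against 1391 to 1660, also with every null library below.

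Genes for proteins of the exit tunnel, through which the new chain leaves, and of the messenger RNA channel of the small subunit had medians below 0. For the 8 tunnel genes the medians were -0.25, -0.18 and -0.14, with 0, 1 and 2 genes above 0. Rpl22, a tunnel-side protein known for a role in blood development, was at 2961 and 2524 TPM in wild type and 2034 to 2357 in the null libraries. Rpl4, a core protein of the tunnel wall, was at 2172 and 2268 TPM against 1945 to 2333, which overlapped. The 4 channel genes Rps2, Rps3, Rps15 and Rps23 had medians of -0.41, -0.28 and -0.26, with 0, 0 and 1 above 0. Rps15 was at 6035 and 5276 TPM in wild type and 4148 to 4803 in the null libraries, and Rps3 at 409 and 378 against 347 to 406. No gene of either group was called. At an unadjusted p under 0.05 the lower genes were 4, 2 and 0 of the tunnel group and 3, 1 and 2 of the channel group. The background over all genes was 6.16, 4.2 and 3.45%, and over all members 38.8, 30.6 and 15.3%.

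Rps27a is a ribosomal protein made as a fusion to ubiquitin, and Fau, whose symbol the pattern does not match, is made as a fusion to a ubiquitin-like protein. Rps27a was at 1093 and 1045 TPM in wild type and 692 to 979 in the null libraries. Fau was at 664 and 550 TPM in wild type and 457 to 519 in the null libraries, with log2 differences of -0.24, -0.38 and -0.29 for the 3 null genotypes in the order above. Rack1, a scaffold on the small subunit that is also outside the pattern, was at 1314 and 1241 TPM in wild type and 856 to 1118 in the null libraries, with log2 differences of -0.38, -0.26 and -0.28. Every null library was below both wild-type libraries for Fau and Rack1, and neither gene was called.

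Paralogues gave low or uneven values. Rpl22l1, a paralogue of Rpl22, was at 376 and 463 TPM in wild type, 210 and 472 in Scribble null, 413 and 349 in Yap1 Taz null and 408 and 349 in triple null, and its Scribble null libraries were the most unlike pair among the members. Rpl36al, an intronless copy of Rpl36a that is used as a gene, was at 1133 and 1199 TPM in wild type and 838 to 983 elsewhere. Its log2 differences were -0.39, -0.41 and -0.25 with adjusted p of 0.111, 0.149 and 0.424. Of the 4 X-linked members, Rpl36a was at 4473 and 3845 TPM against 2939 to 3555, Rps4x at 4656 and 4656 against 3678 to 4292 and Rpl39 at 2234 and 2171 against 1108 to 1964. Rpl10 was the exception, at 2704 and 2808 TPM in wild type and 2553 to 3503 in the null libraries.

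The triple null was also compared with the other null genotypes. In triple null against Scribble null 4 members were called, Rpl29 and the 3 Rps3a genes, against 0.212% of all genes, and the median was 0.13. Without the Rps3a genes 1 of 82 members was called there, Rpl29. In triple null against Yap1 Taz null 1 was called, Rpl29, against 0.181% of all genes, and the median was 0.08. That median was 0.0014 without Yap1 Taz null 2, 0.15 without Yap1 Taz null 1 and -0.0054 in the authors' second table. A test for any difference among the 4 genotypes called the same 4 genes, Rpl29 and the Rps3a trio, where the background was 1%. Here and against Scribble null, the call of Rps3a2 is fixed in part by the choice of members. The Scribble effect with and without Yap1 and Taz differed for no member in limma at an adjusted p under 0.05, against 0.635% of all genes. The smallest p for that difference among the members were those of Rpsa (0.58 ± 0.13, adjusted p = 0.125) and Rplp1 (-1.26 ± 0.30, adjusted p = 0.135), and 36 members (42.4%) had an unadjusted p under 0.05, against 14.5% of all genes.

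The wider machinery was described by lists chosen for their roles. Beside the counts at an unadjusted p under 0.05 below, 6.16, 4.2 and 3.45% of all genes were lower and 12, 10.1 and 7.5% higher in Scribble null, Yap1 Taz null and triple null. In a list of 17 translation genes, including elongation factors whose messages also begin with pyrimidines, the medians were -0.19, -0.18 and -0.10. None was called, and at an unadjusted p under 0.05 5, 2 and 2 were lower and 0, 1 and 0 higher. Npm1, a nucleolar chaperone of ribosome assembly, was at 1790 and 2001 TPM in wild type and 1310 and 1357 in Scribble null (-0.50 ± 0.10, adjusted p = 0.0596). For 55 ribosome biogenesis genes the medians were -0.07, 0.04 and -0.09, closer to 0 than those of the members. None of these was called, and 2, 5 and 1 were higher and 4, 2 and 1 lower at an unadjusted p under 0.05. Among 23 regulators of ribosome production none was called, and 1, 4 and 3 were higher and 0, 2 and 0 lower at an unadjusted p under 0.05. Myc, which drives transcription of these genes, was at 261 and 281 TPM in wild type, 256 and 270 in Scribble null, 339 and 372 in Yap1 Taz null and 304 and 323 in triple null. Its log2 difference in Yap1 Taz null was 0.39 with an adjusted p of 0.193. Ribosomal protein genes of mitochondria, 80 of them tested, had medians of -0.28, -0.13 and -0.15, and 1 was called, Mrpl14, which fell by 1.25 ± 0.22 in Scribble null (adjusted p = 0.0430). Of these 80 genes 64, 54 and 57 were below 0, and 18, 14 and 8 were lower and 0 higher at an unadjusted p under 0.05.

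The pattern shared by the members was described by the mean of their standardised values, which was 0.86 and 0.50 in wild type, -0.49 and -0.41 in Scribble null, 0.01 and -0.64 in Yap1 Taz null and 0.09 and 0.08 in triple null. The genes outside the members most like it over the 8 libraries were Tpt1 (Pearson r = 0.994), Pla2g16 (0.973), Vrk1 (0.962), C1qbp (0.959) and Bag1 (0.959), chosen as the highest of all genes tested. Tpt1, which encodes the abundant protein TCTP and has a pyrimidine-run message, was at 2620 and 2503 TPM in wild type and 2129 to 2355 in the null libraries. Among the members Rps6, at r = 0.97, was one of those most like the mean of the others, and Rpl30 (-0.72), Rps18 (-0.56), Rpl34 (-0.55), Rps13 (-0.51), Rplp1 (-0.50), Rpl35a (-0.42) and Rpl10 (-0.40) were least like it. These values rest on 8 libraries that share a fixed total of TPM.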

How the data were processed

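RNA was extracted with an RNeasy kit, amplified with the Ovation RNA-Seq System v2 and made into Nextera XT libraries, per the labels' protocols. The authors deposited a TPM value for each gene symbol in each of 8 libraries, per the file headers, and TopHat and the build mm10 are named in the submitters' processing notes. The sources used here do not name the quantifier, the annotation or the handling of reads that match several copies, and TPM scales each library to a fixed total. A second table that the authors deposited holds a linear signal in an unnamed unit for 28987 identifiers, of which 27458 matched a symbol and 83 of 85 members were found, and it served only as an alternative. In R 4.3.3 the package limma 3.58.1 was fitted to log2(TPM + 1), with a mean-variance trend and 1 mean for each of 4 genotypes. The filter kept genes of at least 1 TPM in at least 2 libraries. P-values were adjusted over all genes by the Benjamini-Hochberg method with a threshold of 0.05, and a fold on this scale understates the change of low genes. The fit had 4 residual degrees of freedom, and the script was tested on simulated data.

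Transcripts of GENCODE M21 were aligned with BLAST 2.17.0, taking the longest per gene, protein-coding and pseudogene biotypes and the same strand. Copies were genes matching at no less than 90% identity across no less than 50% of the shorter of the pair, and their TPM was added to the member in an alternative fit. Alternatives were also a pseudocount of 0.1, no filter, median-ratio scaling over genes expressed in all libraries, the replicate number as a block, members of at least 100 TPM, and leaving out each library. The members and gene lists were chosen with earlier results of these data known. Genes named were members called in any comparison, the 5 largest differences per direction against wild type, the 8 most and 5 least abundant members, those next to the limit of 20 TPM, role groups, and called or leading genes of other lists. Some genes that this rule takes are not reported here by name.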

Additional observations from a re-analysis of the deposited data

How the results depend on the processing

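Medians and calls kept within their range at a pseudocount of 0.1, and medians, shares and ratios did so for the 83 members of at least 100 TPM. Of all alternative values 130 stayed near the reported value and 53 moved. Without the filter 0 members were called in Scribble null against wild type and 0 in triple null against Yap1 Taz null. Median-ratio scaling, which moves all log2 differences from wild type by -0.13, -0.13 and -0.12, called 4 members in Scribble null (all lower, Rpl14, Rpl18 and Rpsa among them) and gave medians of -0.37, -0.37 and -0.27 against wild type in Scribble null, Yap1 Taz null and triple null. With the replicate number as a block 0 members were called in Scribble null against wild type and 0 in triple null against Yap1 Taz null, and 3, 4, 4 and 4 in the other tests. Deviations of same-numbered libraries correlated between -0.0531 and 0.0257 over all genes, so the numbers gave no sign of pairing there. Over the members the correlations were of both signs and larger, from -0.358 to 0.232, and pairing among them was not tested. With copies summed the calls were 2 in Yap1 Taz null and 1 in triple null against wild type, 0 and 0 in triple null against Scribble null and Yap1 Taz null, and 1 for any difference. The shares were then 26.9% in wild type, 23.2% in Scribble null, 23.2% in Yap1 Taz null and 24.2% in triple null, and the large to small ratios 1.501, 1.49, 1.59 and 1.55.

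In the authors' other table the test called 2 members in Scribble null (Rpl34 and Rpl35a, both higher), and the medians were -0.13 in Scribble null, -0.068 in Yap1 Taz null and -0.089 in triple null against wild type, 0.063 in triple null against Scribble null and -0.0054 in triple null against Yap1 Taz null. The shares there, over the 83 members found, were 18.9% in wild type, 20.4% in Scribble null, 18.9% in Yap1 Taz null and 18.1% in triple null. Scribble null thus lay above wild type, and the ratios were 1.06, 1.01, 1.05 and 1.04 in the order above. The cause of these shifts was not tested. Leaving out each library in turn gave 0 to 10 calls in Scribble null, 3 to 5 in Yap1 Taz null and 4 to 5 in triple null against wild type, 3 to 8 and 0 to 1 in triple null against Scribble null and Yap1 Taz null, and 4 to 10 for any difference. The medians ranged from -0.26 to -0.24, -0.30 to -0.16 and -0.20 to -0.13 against wild type, and from 0.08 to 0.14 and 0.0014 to 0.15 in the last pair. The limits are 2 libraries a group, no record of depth, and no sure assignment of reads among copies.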

Other observations

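Named ribosomal protein pseudogenes moved in 1 direction where they passed the test. Of 172 tested, 9 in Scribble null, 8 in Yap1 Taz null and 8 in triple null were called lower than in wild type and 0 were called higher (limma, Benjamini-Hochberg), while 4, 8 and 9 were higher and 18, 14 and 16 lower at an unadjusted p under 0.05. Over all genes tested 0.71, 0.517 and 0.355% were called lower and 0.591, 0.473 and 0.224% higher. Their median differences were -0.05, -0.02 and -0.02. They held 2.14 and 2.31% of TPM in wild type, 1.61 and 1.70% in Scribble null, 1.95 and 1.90% in Yap1 Taz null and 2.09 and 1.93% in triple null.

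The authors' 2 tables placed some members at different levels. Rps27 was at 12736 and 10390 TPM in wild type in the per-library files and at 2315 and 10161 in the second table, whose unit is not named. Rpl29 fell by 1.86 on the log2 scale in triple null against wild type in the files and by 5.25 in the second table (limma, adjusted p = 7.61e-06 there).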
